A study of Mus musculus with 2 samples.

Results

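The 8 genes described here encode the V1 sector of the vacuolar ATPase (V-ATPase) in its widely used isoforms: Atp6v1a, Atp6v1b2, Atp6v1c1, Atp6v1d, Atp6v1e1, Atp6v1f, Atp6v1g1 and Atp6v1h. They were taken by name from 21536 protein-coding genes with a known strand, so their binding values did not enter a selection rule, although they were proposed with earlier results of these data known. ChIP-seq with an antibody against the transcription factor USF1 mapped its binding in CH12.LX, an immortalized B-cell lymphoma line of mouse strain B10.H-2aH-4bp/Wts. The study had 1 group of 2 biological replicates, and the labels name no treatment. Control libraries were not used here. The lists of bound regions hold no expression values, so the cell type could not be checked against marker genes, and the read depth behind each list is unknown. The only spread that can be measured is that between the 2 replicates.

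The V-ATPase is a rotary proton pump that acidifies lysosomes, endosomes and secretory vesicles. Its cytosolic V1 sector hydrolyses ATP, and its membrane-embedded V0 sector carries the protons. In V1, subunits A and B form the catalytic head, D and F the central stalk that turns within it, and E and G the peripheral stalks that hold the head in place. Subunits C and H sit where the head meets V0, and H is known as a regulator of the pump. USF1 binds DNA as a dimer through its basic helix-loop-helix and leucine zipper domains and recognises the E-box CACGTG. Promoters of many lysosomal genes carry an element with the same core, which is read by TFEB and its relatives.

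Each of the 8 genes had a USF1 summit at its start. In the optimal mm10 list, 8 of 8 had a summit within 1 kb of a 5′ end, where 12.5% of all 21536 genes did (such genes are called bound below). Within 500 bp and within 5 kb the count was 8 of 8 too, beside 11% and 16.5% of all genes. Within the wider range of 5 kb from a 5′ end or inside the gene the count was also 8 of 8, against 22.5% of all genes. In the conservative list both counts were again 8 of 8, beside 11.7% of all genes within 1 kb and 21.2% in the wider range. In the mm9 list both counts were 7 of 8, beside 14.3% and 25.9% of all genes, and Atp6v1d was the gene without a summit. The wider range held 11 optimal summits in all. The nearest optimal summits outside it lay 14422 bp from Atp6v1f, with a signal of 137, and farther from the other genes, up to 1119454 bp from Atp6v1h.

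The DNA under the summits is shown first, because the members differed in whether they carried CACGTG. Sequence was read from the mm9 genome (NCBIM37), on each gene's own strand, for 30 bases around the site. The first 5 genes had CACGTG within 50 bp of their strongest mm9 promoter summit, and capitals mark it.
Atp6v1a, chr16:44139486-44139515, minus strand: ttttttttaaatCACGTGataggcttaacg
Atp6v1c1, chr15:38591682-38591711, plus strand: tgctccggctggCACGTGacttgctctggg
Atp6v1e1, chr6:120772392-120772421, minus strand: tgcaccgcatctCACGTGactgctggtctc
Atp6v1f, chr6:29418045-29418074, plus strand: taacctgggtgtCACGTGgtgatggggacc
Atp6v1h, chr1:5073165-5073194, plus strand: gcggtCACGTGcggctgctCACGTGccaga

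The next 3 sites belong to promoters without CACGTG at the summit. Capitals mark the 8 bases closest to the flanked E-box TCACGTGA on either strand, a comparison chosen after the sequences were seen. For Atp6v1d, which had no mm9 summit, the capitals mark the single such site within 500 bp of its start that differed from TCACGTGA by no more than 1 base.
Atp6v1b2, chr8:71612530-71612559, plus strand: cagagctccagTCACGAGTctgggggcggg
Atp6v1g1, chr4:63205863-63205892, plus strand: tgggtggtggaTCAGGTGAtccgaggggct
Atp6v1d, chr12:79962541-79962570, minus strand: caacgcagttgTCAAGTGAcccggtcagct

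Signal is a value that the authors attached to each region, on a scale that is not given. It varied 7.23-fold across the members, from 79.1 at Atp6v1e1 to 571 at Atp6v1c1. Its median over the strongest promoter summits of the 8 genes was 314, beside 131 over those of all 2684 bound genes. Of the members, 5 lay above that median of all bound genes and 3 below it. No value fell between 106 at Atp6v1b2 and 274 at Atp6v1a, which separates the 5 stronger members from the 3 weaker ones. Another empty range, from 382 at Atp6v1d to 534 at Atp6v1h, lay within the stronger 5. With 8 values, such gaps do not establish distinct sets. The order of the levels in the optimal list was Atp6v1c1, Atp6v1h, Atp6v1d, Atp6v1f, Atp6v1a, Atp6v1b2, Atp6v1g1 and Atp6v1e1. In the mm9 list it was Atp6v1c1 at 2087, Atp6v1h at 1750, Atp6v1a at 783, Atp6v1f at 730, Atp6v1g1 at 201, Atp6v1b2 at 136 and Atp6v1e1 at 86.7. There Atp6v1a stood above Atp6v1f and Atp6v1g1 above Atp6v1b2, the reverse of the optimal list, and Atp6v1d had no summit. Signal over both replicates was close to the sum of the replicates' own signals, with a median ratio of 1.00 over all optimal regions found in both.

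Subunits C and H had the strongest promoters of the V1 sector. The Atp6v1c1 region (chr15:38661784-38662070, mm10) had a signal of 288 in replicate 1 and 286 in replicate 2, and 571 over both. It ranked 64 of the 8108 optimal regions, with its summit 22 bp downstream of the gene's 5′ end. The Atp6v1h region (chr1:5082962-5083223, mm10) had 256 in replicate 1 and 281 in replicate 2, and 534 over both, at rank 155. The replicate values of these 2 genes overlapped in no case, since the higher Atp6v1h value lay under the lower Atp6v1c1 value. The gap between those 2 values, 281 and 286, was smaller than the gap between the replicates of Atp6v1h, so the order of the 2 genes did not stand beyond their spread.

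In the optimal list the central stalk genes came next. Atp6v1d (chr12:78861456-78861655, mm10) had 189 in replicate 1, 194 in replicate 2 and 382 over both, at rank 642 of the optimal regions. Atp6v1f (chr6:29467953-29468172, mm10) had 158 in replicate 1, 199 in replicate 2 and 355 over both, at rank 728. The 2 Atp6v1d values lay between the 2 Atp6v1f values, so these stalk genes did not differ beyond their spread. Both stalk genes stood below Atp6v1h and above Atp6v1a in each replicate. The distance from the lower Atp6v1f value, 158, to the higher Atp6v1a value, 142, was smaller than the gap between the replicates of Atp6v1f.

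The 2 subunits of the catalytic head differed in signal. Atp6v1a, which encodes the ATP-hydrolysing subunit, had 137 in replicate 1 and 142 in replicate 2 at chr16:44139278-44139509 (mm10), with 274 over both at rank 1080. Atp6v1b2, which encodes its partner B subunit in the isoform found in most tissues, had 48.3 and 58.6 at chr8:69088491-69088790 (mm10), with 106 over both at rank 2894. The mean of the replicates was 139 ± 3.59 (SD, n = 2) at Atp6v1a and 53.5 ± 7.23 (SD, n = 2) at Atp6v1b2, a gap larger than either spread.

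The peripheral stalk genes had the lowest signals over both replicates in the optimal list. Atp6v1g1 had 41.6 in replicate 1 and 56.0 in replicate 2 at chr4:63544764-63544847 (mm10), and Atp6v1e1 had 39.4 and 37.1 at chr6:120822244-120822543 (mm10). Over both replicates the signals were 95.7 at rank 3170 and 79.1 at rank 3733. The Atp6v1e1 values lay below those of Atp6v1g1 in each replicate, but the nearest values, 39.4 and 41.6, were closer than the replicates of Atp6v1g1 were to each other. The Atp6v1g1 and Atp6v1b2 values overlapped.

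**Figure D1:**
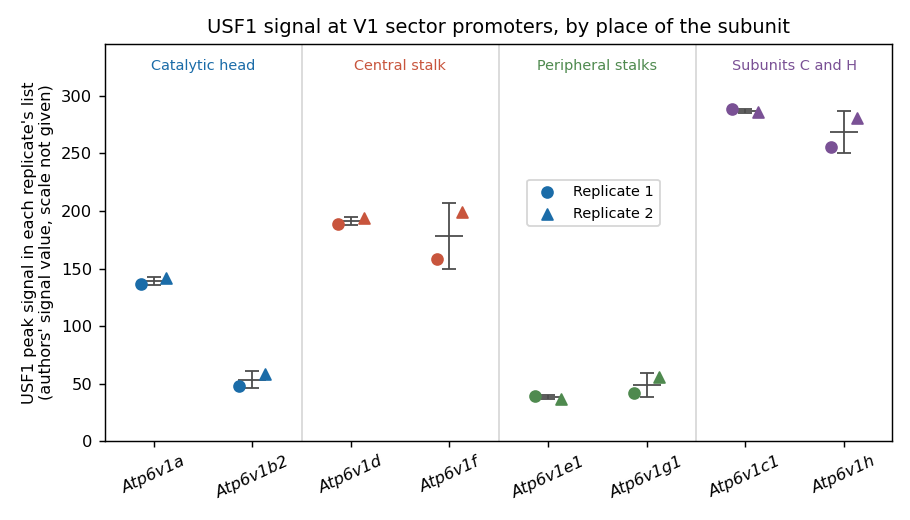
USF1 signal at the strongest promoter summit of each V1 gene, on the authors' scale, with circles for replicate 1, triangles for replicate 2, and a horizontal mark and bar for their mean and SD (n = 2). Genes are grouped by the place of the subunit in V1, and the genes of subunits C and H sit highest, from 256 to 288, while those of the peripheral stalks sit between 37.1 and 56.0.

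Each replicate's list was made separately, and its values were compared as deposited. The log2 ratio of replicate 2 over replicate 1 at the strongest promoter summits ran from -0.09 at Atp6v1e1 to 0.43 at Atp6v1g1, with a median of 0.09. Over all 8054 optimal regions found in both replicates the median was 0.18 with an SD of 0.50 across regions. All 11 member sites lay within 1 SD of that median. The share of all those regions within the same range is not given here, so this count has no background. Of the 11, 9 were higher in replicate 2, beside 5543 of those 8054 regions. At the 8 strongest promoter sites the summits of the 2 replicates lay no more than 15 bp apart. Over all 11 sites the largest distance was 41 bp, at the upstream site of Atp6v1g1. Each of the 11 sites also overlapped a region of the conservative list, which holds 7356 regions beside 8108 in the optimal list.

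In 3 members a further site accompanied the promoter summit. Atp6v1e1 had a second summit 167 bp upstream of its 5′ end, with a signal of 27.1 in replicate 1, 35.0 in replicate 2 and 62.8 over both. Atp6v1g1 had one 362 bp upstream, with 17.5, 23.6 and 38.0. These 2 genes with 2 summits within 1 kb stand beside 6.33% of all bound genes and 0.789% of all genes. Atp6v1b2 had a second summit 1245 bp downstream of its 5′ end, with 53.5, 54.4 and 112, and so about as strong as its promoter summit. This second summit lay nearer, at 743 bp, to the 5′ end of Slc18a1, a neighbouring gene on the opposite strand. By the 1 kb rule it counts for Slc18a1 and not for Atp6v1b2. In mm9 this second Atp6v1b2 site lay in an intron and carried CACATG, the related E-box, within 50 bp of its summit. Its 30 bases are shown because its 8 bases in capitals, TCATGTGA, differ from TCACGTGA at 1 position.
Atp6v1b2 intron, chr8:71613874-71613903, mm9, plus strand: ctgtcagtgggTCATGTGAtaacactgcag

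Promoter summits stood close to the annotated starts. The distance of the strongest promoter summit to the nearest 5′ end was 103 bp in the median and ran from 22 bp at Atp6v1c1 to 304 bp at Atp6v1e1, beside a median of 95 bp over all bound genes. It was 62 bp at Atp6v1g1, 72 bp at Atp6v1d, 95 bp at Atp6v1b2, 111 bp at Atp6v1h, 143 bp at Atp6v1a and 291 bp at Atp6v1f. Measured from that nearest 5′ end, the summits of Atp6v1a and Atp6v1b2 lay upstream and the others downstream. Atp6v1a has a second, outer 5′ end in mm10, and its summit lay 300 bp downstream of that one and so inside the gene. The Atp6v1d summit lay 442 bp downstream of the outer end of that gene.

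In mm9, with Gencode vM1 starts, the distances were 22 bp at Atp6v1c1, 61 bp at Atp6v1g1, 5 bp at Atp6v1b2, 97 bp at Atp6v1a and 291 bp at Atp6v1e1, on the same side of the start as in mm10. Atp6v1h differed, with its summit 84 bp upstream of the mm9 start and 111 bp downstream of the mm10 start. Atp6v1f had 2 annotated 5′ ends in mm9, and its summit lay 5 bp upstream of the nearer. It lay 291 bp downstream of the mm10 start. The builds differ in list and annotation at once, and whether the summit or the annotated start differed was not tested.

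**Figure D2:**
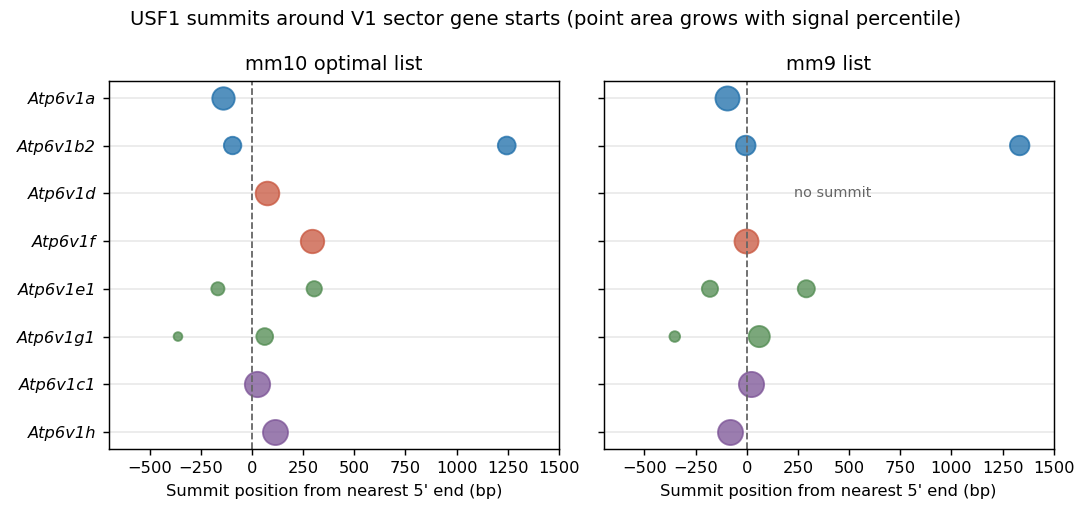
Position of every USF1 summit within 5 kb of a 5′ end or inside each V1 gene, in bp from the nearest 5′ end (negative is upstream), in the mm10 optimal list and the mm9 list, with point area growing with the percentile of signal in the list. All but one summit in each panel lie within 1 kb of the start, and Atp6v1b2 has a second one at 1245 bp in mm10 and 1334 bp in mm9.

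For 3 members the strongest promoter summit also lay within 1 kb of the 5′ end of a neighbouring gene on the opposite strand. The Atp6v1a summit lay 389 bp from the 5′ end of Naa50, the Atp6v1d summit 506 bp from that of Eif2s1 and the Atp6v1b2 summit 597 bp from that of Slc18a1. Naa50 encodes an N-terminal acetyltransferase, Eif2s1 the alpha subunit of the translation initiation factor eIF2, and Slc18a1 a vesicular monoamine transporter. From the 5′ end of the V1 gene nearest the summit to that of the neighbour was 532 bp for Atp6v1a, 434 bp for Atp6v1d and 502 bp for Atp6v1b2. Naa50 and Eif2s1 started upstream of their V1 gene and so shared a promoter region with it. The Slc18a1 5′ end instead lay downstream of the Atp6v1b2 start, inside that gene, so these genes overlapped at their starts. The second, outer 5′ ends annotated for Atp6v1a and Atp6v1d in mm10 lay closer to the neighbour, at 89 and 64 bp. In each case this promoter summit lay nearer to the V1 gene, whereas the second Atp6v1b2 summit lay nearer to Slc18a1. Among all 2684 bound genes, 21.8% had another gene's 5′ end within 1 kb of the strongest promoter summit. Peak lists cannot assign such a summit to either gene.

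CACGTG was found at 5 of the 7 members with an mm9 promoter summit, beside 53.3% of all mm9 peaks and 56.7% of the 3082 within 1 kb of a 5′ end. Among such peaks in the strongest 50% of the mm9 list, to which the strongest promoter summits of all 7 members belonged, the share was 70.3%. Of control windows of the same width centred 500 bp to either side of the mm9 summits, 1.44% held CACGTG. The centre of the E-box lay 2.5 bp from the summit at Atp6v1h, 3.5 bp at Atp6v1f, 5.5 bp at Atp6v1e1, 14.5 bp at Atp6v1a and 15.5 bp at Atp6v1c1.

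The E-boxes fell in different parts of the gene models. In Gencode vM1 that of Atp6v1c1 lay in a 5′ UTR exon, 37 bp downstream of the start, and that of Atp6v1h upstream of the gene, 82 bp from the start. Those of Atp6v1a and Atp6v1f lay in introns of transcripts with an earlier start, 82 and 9 bp upstream of the nearest 5′ end. That of Atp6v1e1 lay in an intron, 297 bp downstream of the start.

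The bases around the core, visible in the sequences above, were alike in part. The copies nearest the summit at all 5 genes held TCACGTG on 1 strand or the other, as did 71.2% of all mm9 peaks with CACGTG. The longer GTCACGTG stood at 4 of the 5, all but Atp6v1a, and at 52.2% of all such peaks. Atp6v1a and Atp6v1e1 had the symmetric form TCACGTGA, Atp6v1c1 and Atp6v1h had GCACGTGA, and Atp6v1f had CCACGTGA. Over all mm9 peaks with CACGTG, these forms made up 24.4%, 8.99% and 27.8%. Atp6v1h alone among the members had a second copy in the same window, starting 14 bp from the first. Of all mm9 peaks, 2.71% had more than 1 copy.

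The weaker promoters included one with CACGTG at the summit and a pair without it. Atp6v1e1 had the symmetric TCACGTGA 5.5 bp from its summit, yet it had the weakest promoter summit of the members in both builds, with 86.7 in mm9. Atp6v1g1 and Atp6v1b2, with no CACGTG or CACATG within 50 bp, had 201 and 136 in mm9, and neither string stood there on either strand. At Atp6v1g1 the closest 8 bases, TCAGGTGA, lay 10.5 bp from the summit in the 5′ UTR and differed from TCACGTGA at 1 position. An octamer with no more than 1 difference was found in 19.3% of all promoter peaks without CACGTG and in 1.45% of control windows without it. At Atp6v1b2 the closest, TCACGAGT, differed at 2 positions, and no more than 2 differences were found in 67.8% of such promoter peaks and 22.7% of control windows.

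A single CACGTG within 500 bp of the Atp6v1g1 start was found, 97.5 bp from the weaker upstream summit and so outside the window of 50 bp. This weaker mm9 summit had a signal of 41.9. The second Atp6v1e1 summit, 180 bp upstream of the start in mm9 with a signal of 76.3, had neither E-box within 50 bp.

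Atp6v1d stood apart from the other members. It had the third strongest signal in mm10, nearly equal in both replicates, but no summit of the mm9 list used here lay within 5 kb of its starts or inside it. The nearest lay 273637 bp away. Of 516 genes found in mm9 by symbol whose mm10 promoter signal was at least that of Atp6v1d, 23 (4.46%) had no mm9 summit in the same range, and Eif2s1 on the other side of the shared promoter was one of them. The cause was not tested. The RefSeq promoter of Atp6v1d (GRCm38.p6) matched the mm9 genome at 1 place, and no CACGTG lay within 1 kb of the start there. The octamer TCACTTGA, printed above in its other orientation, on the gene's strand, lay 69 bp downstream of the start in mm9, and the mm10 summit lay 72 bp downstream of its start in mm10. Coordinates were not converted between the builds, so the distance between that octamer and the summit was not measured.

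The paralogous V1 isoforms, whose use is restricted to certain tissues such as kidney, epididymis, testis or brain, had no bound promoter. Of Atp6v1b1, Atp6v1c2, Atp6v1e2, Atp6v1g2 and Atp6v1g3, 0 of 5 had an optimal summit within 1 kb of a 5′ end, beside 12.5% of all genes and 8 of 8 members. For a set of only 5 genes, a count of 0 stands close to that share of all genes. In the relaxed list of both replicates, which includes background and has a median signal of 7.01, the highest value within 1 kb was 18.2 at Atp6v1g2, 9.19 at Atp6v1c2 and 6.15 at Atp6v1b1. Atp6v1e2 and Atp6v1g3 had no region there. Atp6v1g2 did have an optimal summit of 465 at 4780 bp from a 5′ end, which lay within 1 kb of the start of another gene.

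Members and isoforms also differed in their promoter sequence. CACGTG stood within 500 bp of the mm9 start in 6 of 8 members and 0 of 5 isoforms, beside 17.1% of all genes. The ratio of observed to expected CpG dinucleotides around the start ran from 0.621 at Atp6v1f to 0.929 at Atp6v1a among the members and from 0.0785 at Atp6v1g3 to 0.490 at Atp6v1g2 among the isoforms, without overlap. The median of all genes was 0.555. The share of genes bound in mm9 was 41.6% of genes with CACGTG in that range, 8.69% of those without it, 23.9% of those with a CpG ratio at least that of the lowest member, and 56.1% of those with CACGTG and such a ratio. All 6 members with CACGTG in that range were bound in mm9, and of the other two Atp6v1b2 was. The parts of CpG content, of open chromatin and of expression in the difference between members and isoforms were not tested.

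**Figure D3:**
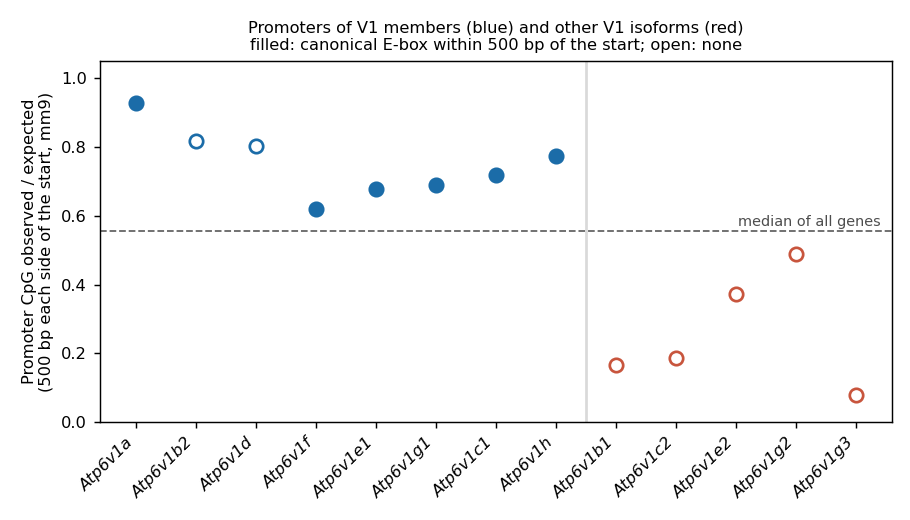
Ratio of observed to expected CpG dinucleotides from 500 bp before to 500 bp after the mm9 start, for the 8 V1 members (blue) and the 5 other V1 isoforms (red), with filled points for promoters that hold CACGTG and the dashed line at the median of all genes, 0.555. All members lie above that line and all isoforms below it.

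The rest of the pump and its assembly machinery was bound in part. In the V0 sector 4 of 10 genes were bound, beside 12.5% of all genes, and 5 of 10 in the mm9 list, beside 14.3%. The V0 set kept all its paralogs together, whereas the tissue-restricted V1 isoforms were set apart from the members. Its count is therefore not on like terms with that of the V1 members. The 4 were Atp6v0b at a signal of 544, Atp6v0d1 at 480, Atp6v0e at 438 and Atp6v0c at 300. Both replicates held these sites, with 273 and 272 at Atp6v0b, 230 and 255 at Atp6v0d1, 212 and 229 at Atp6v0e and 146 and 155 at Atp6v0c. They include the proton-carrying ring subunits encoded by Atp6v0b and Atp6v0c.

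Both accessory genes (2 of 2, beside 12.5% of all genes) were bound, with 77.4 at Atp6ap1 and 45.1 at Atp6ap2, below the lowest member at 79.1. Their values in replicates 1 and 2 were 35.8 and 40.9 at Atp6ap1 and 12.0 and 31.9 at Atp6ap2, and the Atp6ap1 values overlapped those of Atp6v1e1. Of the 7 assembly factors 5 were bound, again beside 12.5% of all genes: Ccdc115 at 362, Tmem199 at 321, Vma21 at 185, Wdr7 at 115 and Rogdi at 47.0. The Ccdc115 and Tmem199 summits also lay within 1 kb of another gene's 5′ end and cannot be assigned to either gene. Ccdc115, Tmem199 and Vma21 act in building the V0 sector, while Wdr7 and Rogdi belong to the complex that joins V1 to V0. Over all 24 other V-ATPase genes 11 were bound (45.8%, beside 12.5% of all genes), with a median signal of 300.3 among those bound, beside 314 for the members.

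**Figure D4:**
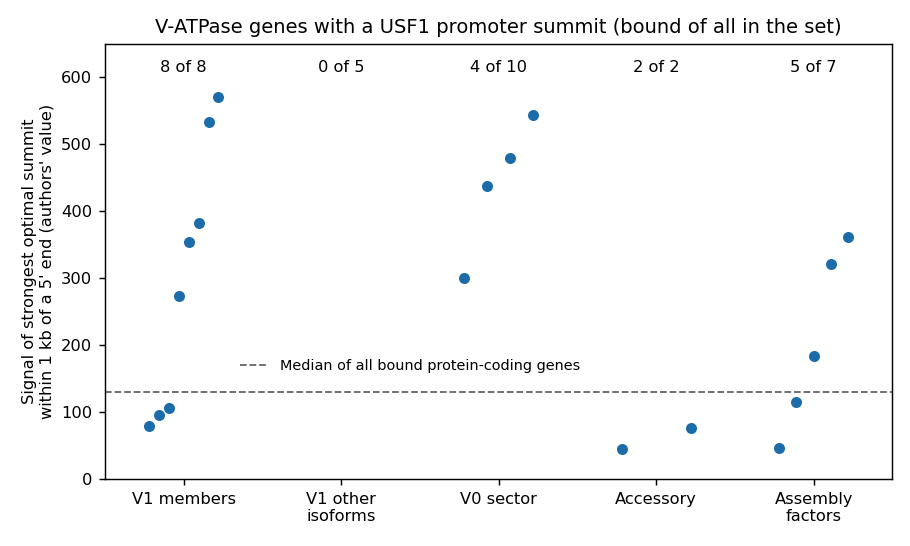
Signal of the strongest optimal summit within 1 kb of a 5′ end for each bound V-ATPase gene, by set, with the number bound of all genes in the set above and the dashed line at the median of all bound protein-coding genes, 131. The V1 members split into 5 above the line and 3 below it, the bound V0 genes lie between 300 and 544, and the other V1 isoforms have no point. The V0 set, unlike V1, was not split by isoform.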

How the data were processed

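USF1 ChIP-seq was analysed from lists of regions. Per the deposited readme files, a relaxed mm10 list was made from each replicate's alignments and from both together, the optimal and conservative lists were thresholded from these by IDR (a comparison of ranks between lists), and the mm9 list came from both replicates' mm9 alignments. The names of aligner and peak caller were not given in the sources used here, and neither was read depth. The deposited signal value of the authors (column 7) was used as deposited, and genes were ranked only within a list. Across lists, the replicates' values entered ratios, means and SDs, and their sum was set against the signal over both. The summit was the start plus the offset in column 10, with 1-based positions.

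Gene starts in mm10 came from RefSeq (GRCm38.p6): the gene's 5′ end and, where listed, further ends in a table of promoters, which held 4 of the 8 members. Strand came from that table or from Gencode vM1, for 21536 of 21900 genes. In mm9 the protein-coding transcripts of Gencode vM1 and the NCBIM37 genome were used. Regions were matched between mm10 lists at an overlap of at least 1 bp. E-boxes were searched on both strands within 50 bp of a summit. Functions were tested on simulated data. Work was done in Python 3.11.15 with pandas 2.3.3 and pysam 0.24.0.

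The members and lists were chosen with earlier results of these data known, so counts are given beside their background with no p. All members are named, as are all V1 isoforms, each other V-ATPase gene that was bound, and genes whose 5′ end lay within 1 kb of a member summit. Sequence comparisons beyond CACGTG and CACATG were chosen after the sequences were seen.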

Additional observations from a re-analysis of the deposited data

How the results depend on the processing

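All 8 members remained bound in the conservative list (11.7% of all genes), at 500 bp (11%) and at 5 kb (16.5%). So did all 8 in the strongest 50% of the optimal list, for which no share of all genes is given here. The counts at 500 bp and 5 kb were fixed by the summit distances of 22 to 304 bp, so they are no separate check. In the mm9 list 7 of 8 were bound (14.3%), and Atp6v1d had no summit. Only the strongest regions of 1 replicate, as many as the optimal list holds, were then used. The count was 8 without replicate 1 (12.9% of all genes) and 8 without replicate 2 (12.5%). The other V-ATPase genes bound numbered 11 of 24 (12.5% of all genes), and 9 to 13 over all alternatives, with 10 to 11 when either replicate was left out. The 9 came from the strongest 50% of the optimal list, again with no share of all genes beside it. The 13 came from 5 kb (16.5% of all genes). The median percentile of the members' strongest promoter summits in their list was 88.9. It was 87.7 in the conservative list and 93.6 over 7 members in mm9, and 88.5 to 89.2 when either replicate was left out. The median distance to the nearest 5′ end was 103 bp, 61 bp over 7 members in mm9, and 93.5 to 100.5 bp when either replicate was left out. CACGTG stood at 5 members with windows of 25 bp and 100 bp as well. No paired analysis was possible because there is only 1 group. Read depth is unknown, so weak sites may lie below what these lists could detect.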

Other observations

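Atp6v1b2 and the upstream site of Atp6v1e1, neither with CACGTG or CACATG at the summit, shared a run of 12 bases, CAGTCACGAGTC, on the strand of each gene. It was picked, after the sequences had been seen, as the longest string common to these windows, so its presence in both is fixed by that choice. The Atp6v1b2 site is shown above, and the Atp6v1e1 site is given here for comparison, with the 8 bases closest to TCACGTGA in capitals.
Atp6v1e1 upstream, chr6:120772889-120772918, mm9, minus strand: ttgccaagcagTCACGAGTcagtttaaaaa
The core CACGAG of that run stood, on either strand, in 3.57% of all mm9 summit windows, in 6.13% of those within 1 kb of a 5′ end, and in 1.82% of control windows around all mm9 summits.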
